A study of Homo sapiens with 18 samples.

Results

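The APOBEC3 genes encode the human family of DNA cytidine deaminases, and all 7 of them (APOBEC3A, APOBEC3B, APOBEC3C, APOBEC3D, APOBEC3F, APOBEC3G and APOBEC3H) had a row among the 35044 genes of the count table. They were found by gene symbol through the Ensembl identifier. RNA sequencing counts were available for HCC1937-EV, described in the study as a breast cancer line with mutated BRCA1 that carries an empty vector, and for HCC1937-OE-BRCA1, the same line overexpressing wild-type BRCA1. Each line had 3 libraries before treatment (0 h), 3 after 12 h and 3 after 24 h with the PARP inhibitor olaparib, given at 10 µmol/L, which makes 18 libraries in 6 groups. The treatment field names olaparib for the 0 h libraries too, so the groups were taken from the sample titles. Nothing in the labels says that replicates were separate cultures, and the p-values then measure only the spread between these libraries. Fewer cells that express a gene and less of its RNA per cell cannot be told apart in such bulk libraries.

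APOBEC3 enzymes turn cytosine into uracil in single-stranded DNA. They are best known for damaging the DNA copies of retroviruses and retrotransposons, and several of them are induced by interferon in immune cells. When they act on the cell's own exposed DNA they leave clustered cytosine mutations, and APOBEC3A and APOBEC3B are held to be the main sources of that mutational pattern in breast cancer. APOBEC3A, APOBEC3C and APOBEC3H carry a lone deaminase domain, while APOBEC3B, APOBEC3D, APOBEC3F and APOBEC3G carry a pair. The principal transcripts of GENCODE 29 hold 199, 190 and 183 codons for APOBEC3A, APOBEC3C and APOBEC3H, and 382, 386, 373 and 384 codons for APOBEC3B, APOBEC3D, APOBEC3F and APOBEC3G.

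On GRCh38 the family lies head to tail on the plus strand of chromosome 22, within 151.3 kb. APOBEC3A is annotated at chr22:38952741-38992778, APOBEC3B at chr22:38982347-38992804, APOBEC3C at chr22:39014083-39020352 and APOBEC3D at chr22:39021113-39033276. APOBEC3F follows at chr22:39040604-39053910, APOBEC3G at chr22:39077005-39087743 and APOBEC3H at chr22:39097224-39104067. All 7 are protein-coding, and the counts cover their exons. The copies are near enough in sequence to share stretches of coding DNA, so reads can fall where their origin is ambiguous. The 2 stretches below are shown because each is read identically from a pair of members, with the 2 bases on either side of an exon junction in capitals. The first spans 196 bases (chr22:38959685-38961580 in APOBEC3A and chr22:38989609-38991525 in APOBEC3B) and the second 222 bases (chr22:39029494-39031889 in APOBEC3D and chr22:39049556-39052269 in APOBEC3F).
APOBEC3A and APOBEC3B: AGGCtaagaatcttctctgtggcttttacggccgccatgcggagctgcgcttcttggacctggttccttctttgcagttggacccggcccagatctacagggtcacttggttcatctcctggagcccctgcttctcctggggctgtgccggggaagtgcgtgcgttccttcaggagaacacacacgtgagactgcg
APOBEC3D and APOBEC3F: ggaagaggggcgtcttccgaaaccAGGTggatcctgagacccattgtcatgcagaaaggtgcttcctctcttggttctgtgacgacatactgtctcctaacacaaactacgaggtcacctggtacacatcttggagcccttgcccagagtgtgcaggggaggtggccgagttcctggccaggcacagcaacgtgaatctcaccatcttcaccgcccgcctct
Of all 100-base windows in the annotated transcripts of a gene, 25.1% for APOBEC3B, 18.4% for APOBEC3A, 13.3% for APOBEC3F, 8.73% for APOBEC3D and 5.05% for APOBEC3G also occurred in another member. APOBEC3C and APOBEC3H shared no such window, so their counts are the least exposed to a mix-up between copies. The annotated exons of APOBEC3A and APOBEC3B overlap over 348 bases through a joint transcript, and APOBEC3B shares 244 exon bases with an antisense gene on the other strand, whose reads cannot be told from its own because the strand setting of the counting is not given in the sources used here. For APOBEC3D, 2104 of 2528 exon bases (83.2%) also belong to a read-through gene, and its low counts are therefore uncertain.

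Only APOBEC3H had an entry among the RefSeq promoter windows (GRCh38.p14, plus strand), and it is printed because this member is known as an interferon-responsive gene in other cells. The window of chr22:39096994-39097293 runs from 250 bases before the start site to 50 after it, and the capitals mark the only match to the short IRF element AANNGAAA.
APOBEC3H promoter: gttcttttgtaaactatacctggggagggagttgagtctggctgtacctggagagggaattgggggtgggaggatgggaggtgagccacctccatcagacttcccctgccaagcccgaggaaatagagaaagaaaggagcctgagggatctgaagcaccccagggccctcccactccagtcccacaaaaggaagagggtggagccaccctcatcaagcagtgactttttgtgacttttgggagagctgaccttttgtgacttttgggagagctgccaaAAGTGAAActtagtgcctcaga
That match lies 28 to 35 bases after the start site, and 22.8% of 35116 promoter windows held the element on either strand. The full interferon-stimulated response element core, a pair of GAAA runs 2 bases apart that contains the short element and was present in 3.57% of windows, did not occur in these letters, nor did the STAT core TTCNNNGAA (7.66%) or the cell cycle element TTTGAA (15.2%).

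Total counts lay between 15081973 and 17571922 per library, with a median of 16077299, and 18335 genes passed the filter on low counts. APOBEC3A, APOBEC3B, APOBEC3C, APOBEC3F, APOBEC3G and APOBEC3H were among them, and APOBEC3D was not tested. The checks of the lines were mixed. EPCAM, an epithelial surface protein, stood at 0.0206 CPM (counts per 1000000 counts of the library) in the EV libraries and 310 CPM in the OE-BRCA1 libraries at 0 h, and the basal keratin KRT5 at 0.0825 against 1550 CPM. KRT8 and KRT18, the keratins of simple epithelium, were abundant in both, at 1890 and 875 CPM in EV and 3800 and 1210 CPM in OE-BRCA1 libraries. The growth factor receptor EGFR was at 194 against 296 CPM. The 9 epithelial markers summed to 2910 to 3040 CPM in EV libraries at 0 h, most of it from KRT8 and KRT18, and to 8250 to 10500 CPM in OE-BRCA1 libraries. All 9 were called higher in OE-BRCA1 libraries at 0 h, where 39.4% of all tested genes were. Their median log2 fold change was 9.1. Markers near 0 in EV libraries, such as EPCAM, passed the filter on low counts through the OE-BRCA1 libraries, where they were high. Calls of such markers were thus favoured in part by the filter, and the size of their fold changes is uncertain. BRCA1 itself was 118 ± 7.7 CPM (SD, n = 3) in EV and 138 ± 24 CPM in OE-BRCA1 libraries at 0 h, and that difference did not pass the test (log2 fold change 0.24, SE 0.11, adjusted p = 0.0654). It did not pass at 12 h either (0.16, SE 0.11, adjusted p = 0.197), and at 24 h BRCA1 was higher in OE-BRCA1 libraries, at 161 against 94.5 CPM (0.77, SE 0.11, adjusted p = 3.17e-06). "EV" and "OE-BRCA1" therefore mean libraries labelled so throughout, and the effect of BRCA1 and any other difference between the 2 sets of cells cannot be told apart.

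Before treatment, the EV libraries held appreciable RNA of only APOBEC3C and APOBEC3B, whereas the OE-BRCA1 libraries held more of both and added APOBEC3F. APOBEC3B and APOBEC3C, which were well counted in both lines, were called higher in OE-BRCA1 than in EV libraries at 0 h, at 12 h and at 24 h, with no overlap between libraries at any time. APOBEC3A, APOBEC3F, APOBEC3G and APOBEC3H passed the filter on low counts only through the OE-BRCA1 libraries, where they were high, so that a difference was fixed in part by the filter, and they are described by their reads. The background was high: 39.4%, 38.8% and 39.9% of all tested genes were called higher at the 3 times by the quasi-likelihood test of edgeR (p-values adjusted by Benjamini-Hochberg over all of them). Libraries did not overlap, with OE-BRCA1 higher, for 38.7%, 39.7% and 42.6% of genes. The median log2 fold change over all tested genes was 0.11, 0.08 and 0.12.

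**Figure D1:**
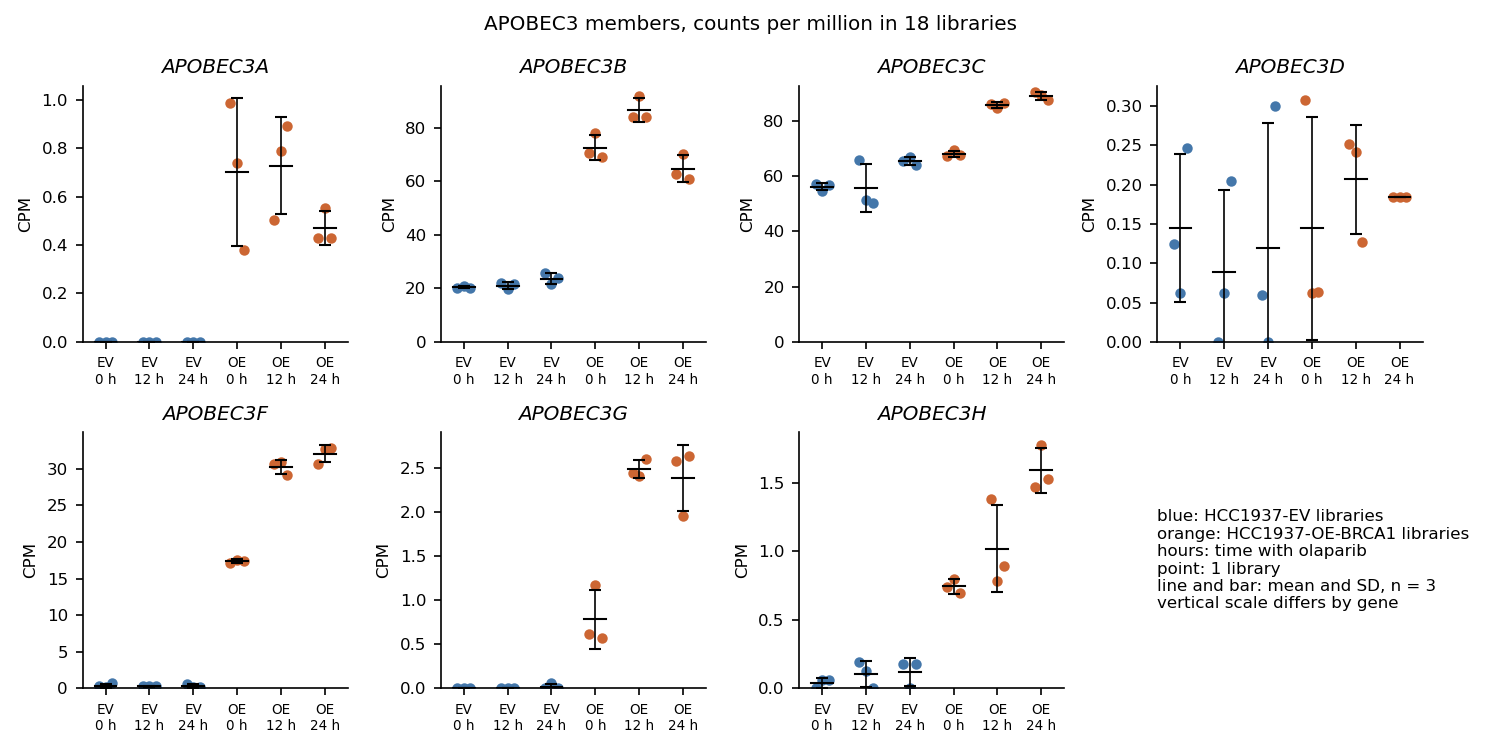
CPM (vertical axis, its scale differing by gene) of the 7 members in each of 18 libraries, by line and hours with olaparib, with the mean and SD of 3 libraries. APOBEC3F, APOBEC3G and APOBEC3A sit at or near 0 in every EV library, and APOBEC3B sits between 61.0 and 92.1 CPM in OE-BRCA1 libraries against 19.6 to 25.6 CPM in EV libraries.

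APOBEC3B, a nuclear deaminase often raised in breast tumours, read 20.1, 21.0 and 20.3 CPM in the EV libraries at 0 h, 21.9, 19.6 and 21.5 at 12 h, and 25.6, 21.5 and 23.8 at 24 h. In the OE-BRCA1 libraries it read 70.8, 78.1 and 69.1 CPM at 0 h, 84.3, 92.1 and 84.3 at 12 h, and 62.8, 70.4 and 61.0 at 24 h. Each OE-BRCA1 library was above each EV library, and among OE-BRCA1 libraries those at 12 h were the highest. The log2 difference between the lines was 1.83 (SE 0.10, adjusted p = 8.65e-13) at 0 h, 2.05 (SE 0.10, adjusted p = 1.38e-13) at 12 h and 1.45 (SE 0.10, adjusted p = 3.1e-11) at 24 h.

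APOBEC3C, a small and broadly expressed member with weak antiviral activity, was closer in level between the lines than APOBEC3B or APOBEC3F. It read 57.0, 54.6 and 56.9 CPM in EV libraries at 0 h, 65.9, 51.3 and 50.3 at 12 h, and 65.5, 66.8 and 63.9 at 24 h. The OE-BRCA1 values were 67.3, 69.4 and 67.5 CPM at 0 h, 86.0, 84.7 and 86.6 at 12 h, and 90.4, 89.2 and 87.6 at 24 h. The 0 h groups were narrow and separate, while 1 EV library at 12 h lay well above the other two of its group. The log2 difference between the lines was 0.28 (SE 0.10, adjusted p = 0.0122) at 0 h, 0.62 (SE 0.10, adjusted p = 5.67e-06) at 12 h and 0.45 (SE 0.09, adjusted p = 0.000236) at 24 h, and the 0 h call was lost without a filter on low counts (adjusted p = 0.0602).

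APOBEC3F, a cytoplasmic enzyme that is packaged into retroviral particles, was well counted only in OE-BRCA1 libraries. The 9 EV libraries held 2 to 11 reads each, or 0.124 to 0.678 CPM. The OE-BRCA1 libraries held 17.1, 17.6 and 17.4 CPM at 0 h, 30.7, 30.9 and 29.2 at 12 h, and 30.7, 32.7 and 32.9 at 24 h. No EV library came near the OE-BRCA1 range, whose 0 h libraries were in turn all below the treated ones. The ratio of the lines was 46.9 at 0 h (exact 95% counting interval 29.5 to 79.5), 108 at 12 h (62.9 to 203) and 102 at 24 h (62.3 to 178), where these intervals cover counting error only. With so few EV reads 1 library decides the size: the fitted log2 difference went from 5.52 to 6.27 at 0 h without EV replicate 3 and from 6.63 to 7.43 at 24 h without EV replicate 1.

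The 3 scarcest tested members were nearly confined to OE-BRCA1 libraries. APOBEC3G, the classic restriction factor of HIV that the viral Vif protein targets, had a single read in the 9 EV libraries together, in replicate 2 at 24 h. Its OE-BRCA1 libraries held 10, 19 and 9 reads at 0 h, 39, 40 and 41 at 12 h, and 42, 32 and 43 at 24 h. Against a floor of 3 counts over the EV group, it was at least 12.7-fold higher at 0 h and at least 38.5-fold higher at 12 h. At 24 h, with 117 reads against 1, the ratio was 121 with a counting interval of 21.3 to 4820.

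APOBEC3A, an interferon-inducible and highly active mutator usually found in myeloid cells, had no read in any EV library. In OE-BRCA1 libraries it had 16, 12 and 6 reads at 0 h, 8, 13 and 14 at 12 h, and 7, 9 and 7 at 24 h. Against a floor of 3 EV counts these reads were at least 11.4-fold, 11.2-fold and 7.94-fold higher at the 3 times. Like those of APOBEC3G, these bounds leave out the counting error of the OE-BRCA1 reads. APOBEC3H, a lone-domain enzyme that also restricts retroviruses, had 0 to 3 reads per EV library. It had 12, 13 and 11 reads in OE-BRCA1 libraries at 0 h, 22, 13 and 14 at 12 h, and 24, 29 and 25 at 24 h. The lines did not overlap, and the ratio was 18.1 at 0 h (4.65 to 155), 9.43 at 12 h (3.78 to 30.3) and 13.5 at 24 h (5.91 to 37.8). Without EV replicate 1 the fitted log2 difference at 12 h went from 3.15 to 3.82.

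APOBEC3D, which also acts on retroviruses, had 17 reads over the 9 EV libraries and 26 over the 9 OE-BRCA1 libraries, with 0 to 5 reads in each. Its libraries overlapped at every time, and the ratio of the lines was 1.0 at 0 h with a counting interval of 0.3 to 3.35. A difference within that interval was not detectable at this depth.

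Levels of different members were compared per kilobase of annotated exon, since a longer transcript collects more reads. On that scale the family summed to 30.9 ± 0.355 CPM per kb in EV libraries at 0 h and 68.9 ± 3.08 in OE-BRCA1 libraries (SD, n = 3). APOBEC3C gave 64.5% ± 0.955 of the EV sum and APOBEC3B 34.9% ± 1.14. In OE-BRCA1 libraries APOBEC3B came first with 55.6% ± 1.14, followed by APOBEC3C with 35.1% ± 0.996 and APOBEC3F with 7.79% ± 0.286. The order of the leading pair was thus reversed between the lines, and the members not named here stayed below 1% of either sum.

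With olaparib the mixture in EV libraries stayed within narrow limits, with APOBEC3C at 63.5% and 64.6% after 12 h and 24 h. In OE-BRCA1 libraries the APOBEC3B share went from 55.6% to 52.5% ± 1.44 and 43.9% ± 1.71, and that of APOBEC3F from 7.79% to 10.7% ± 0.233 and 12.8% ± 0.617. The APOBEC3H share was 0.862% ± 0.0277, 0.936% ± 0.304 and 1.64% ± 0.111. The family sum in these libraries was 87.3 ± 2.07 CPM per kb at 12 h and 77.6 ± 2.94 at 24 h. Counted by the longest transcript in place of all exons, the OE-BRCA1 share of APOBEC3F at 24 h was 14.6% and that of APOBEC3B 43.1%.

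**Figure D2:**
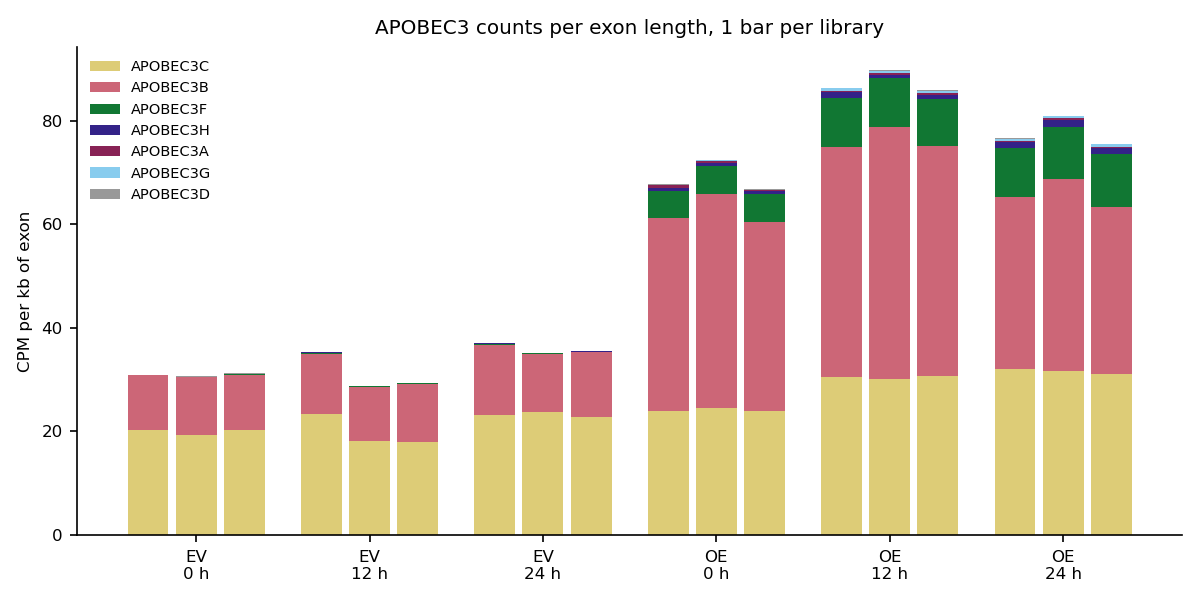
Stacked CPM per kb of exon (vertical axis) of the 7 members, with 1 bar per library and libraries grouped by line and hours with olaparib. EV bars reach 28.8 to 37.1 and consist of APOBEC3C and APOBEC3B, and OE-BRCA1 bars reach 66.7 to 89.7 with a visible APOBEC3F portion.

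In EV libraries no member passed edgeR's quasi-likelihood test for a change with olaparib. APOBEC3B and APOBEC3C were the 2 members that pass the filter on EV libraries alone, and the others had 0 to 11 reads in each EV library. At 12 h, 0 of the 2 were called, against 0.0436% of all tested genes, and DESeq2 called 0, with 0 at an unadjusted p under 0.05. At 24 h the counts were again 0 by edgeR and 0 by DESeq2 while 13.7% of all genes were called, and 1 member, APOBEC3C, had an unadjusted p under 0.05. That background was unstable. At 24 h it was 2520 genes, and 462, 1549 or 970 without untreated replicate 1, 2 or 3, 738 or 708 without replicate 1 or 2 at 24 h, and 5173 in a fit on the 2 compared groups alone. At 12 h it was 8 genes, and 462 without replicate 1 at 12 h. APOBEC3C had a log2 fold change of 0.22 (SE 0.09, adjusted p = 0.119) and APOBEC3B one of 0.21 (SE 0.10, adjusted p = 0.165), and for both all 3 libraries at 24 h lay above all 3 at 0 h, as they did for 20.8% of all genes. Fitted on the 2 compared groups alone, APOBEC3C at 24 h passed the threshold (adjusted p = 0.0428). Between 12 h and 24 h edgeR and DESeq2 each called 0 members, with 0.18% of genes called and 1 member, APOBEC3C, at an unadjusted p under 0.05.

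In OE-BRCA1 libraries APOBEC3F and APOBEC3G were called higher at 12 h, and APOBEC3C, APOBEC3F and APOBEC3G at 24 h. At 12 h, 2 of 6 tested members were called higher, where 1.7% of all tested genes were, and at 24 h 3 of 6 were, where 4.71% of all genes were. APOBEC3G, called at both times, passed the filter on low counts only with the treated OE-BRCA1 libraries, where it was higher. Its rise was therefore favoured in part by the filter, and this also bears on the medians and the counts of separate libraries given below. No member was called lower against 0 h at either time, where 0.605% and 3.55% of all genes were. Both times were set against the same 3 untreated libraries. The background in both directions was 423 genes at 12 h and 257 to 468 without 1 library, and at 24 h 1515 genes, 3329 without untreated replicate 1 and 644 to 916 without any other library. The median log2 fold change of the 6 members was 0.39 at 12 h and 0.64 at 24 h, beside 0.00 and 0.02 for all tested genes. At each time 4 members had every treated library above every untreated one, which held for 9.21% of all genes at 12 h and 14% at 24 h.

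APOBEC3F went from 17.4 ± 0.255 CPM to 30.3 ± 0.903 and 32.1 ± 1.21 (SD, n = 3), a log2 fold change of 0.80 (SE 0.17, adjusted p = 0.00799) at 12 h and 0.88 (SE 0.17, adjusted p = 0.00188) at 24 h. It was called in 6 of 6 fits that each left out 1 of the compared libraries, at both times. Between 12 h and 24 h its change was 0.09 (SE 0.16, adjusted p = 0.823).

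APOBEC3G went from 0.784 ± 0.335 CPM to 2.49 ± 0.0999 and 2.39 ± 0.372, with log2 fold changes of 1.66 (SE 0.37, adjusted p = 0.0212) and 1.60 (SE 0.37, adjusted p = 0.0135). All treated libraries lay above all untreated ones, of which replicate 2 held as many reads as the other two together. With 9 to 19 reads per untreated library the calls were fragile. The 12 h call held without untreated replicate 2 and was lost without any other of the 6 libraries (adjusted p from 0.0698 to 0.0912). The 24 h call was lost without untreated replicate 3 (0.064) and without replicate 1 (0.0538) or 3 (0.0652) at 24 h.

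APOBEC3C went from 68.1 ± 1.14 CPM to 85.8 ± 0.967 and 89.0 ± 1.45. The log2 fold change of 0.33 at 12 h (SE 0.09) missed the threshold with an adjusted p of 0.0708, and passed it in DESeq2 (0.0173) and with an offset for GC content and length (0.0249). At 24 h it was 0.39 (SE 0.09, adjusted p = 0.0133), and the call was lost without replicate 1 at 24 h (0.0545), without a filter on low counts (0.0882) and in a fit on the 2 compared groups alone (0.0761). Between 12 h and 24 h its change was 0.05 (SE 0.09, adjusted p = 0.802). All treated libraries lay above all untreated ones at both times.

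APOBEC3B was highest at 12 h. Its 12 h libraries were all above the untreated ones, with a log2 fold change of 0.26 (SE 0.10, adjusted p = 0.233) that did not pass, and at 24 h the value against 0 h was -0.17 (SE 0.10, adjusted p = 0.31). Between 12 h and 24 h it fell by 0.42 on the log2 scale (SE 0.10, adjusted p = 0.0262), and its 3 libraries at 24 h lay below all 3 at 12 h, as in 17% of all genes. It was the 1 member called between these times, lower, where 0.862% of all genes were called lower, and 0 members were called in any fit that left out a library (adjusted p from 0.0587 to 0.172), while the genes called in either direction went from 303 to between 69 and 103. The order of its levels was thus OE-BRCA1 at 12 h, 0 h and 24 h, then EV at 24 h, 12 h and 0 h, where neighbours within a line did not pass the test.

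APOBEC3H stood at 0.744 ± 0.0543, 1.02 ± 0.319 and 1.6 ± 0.163 CPM, and its 24 h libraries lay above all others. The log2 fold change at 24 h was 1.09 with an SE of 0.44 and an adjusted p of 0.13, and at 12 h 0.45 with an SE of 0.46 and an adjusted p of 0.791. APOBEC3A had a log2 fold change of 0.05 (SE 0.48, adjusted p = 0.997) at 12 h and -0.57 (SE 0.50, adjusted p = 0.544) at 24 h, with overlapping libraries. With at most 29 reads in a library, changes of both genes were hard to detect. The APOBEC3H value at 24 h was well above its SE and still did not pass, so changes larger than these errors could also go undetected.

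**Figure D3:**
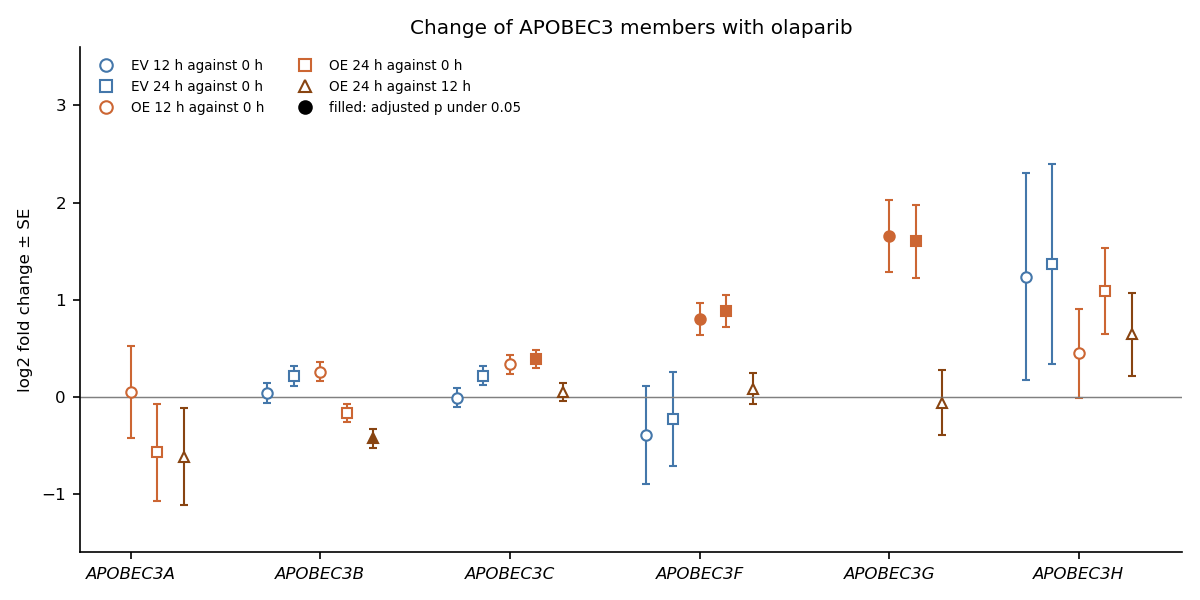
Log2 fold change with its standard error (vertical axis) of the 6 tested members for 5 comparisons within a line, with filled symbols at an adjusted p under 0.05. APOBEC3A and APOBEC3G are left out for EV libraries, where they had 0 and 1 read, and the filled symbols are APOBEC3F and APOBEC3G at 12 h and 24 h, APOBEC3C at 24 h and APOBEC3B between the treated times.

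Whether the response itself differed between the lines was tested as an interaction. For APOBEC3A and APOBEC3G no difference of response can be given, since EV had no read or 1. At 12 h, 0 of the other 4 tested members were called by edgeR and 0 by DESeq2, with 0.518% of all genes called, and 2 (APOBEC3C and APOBEC3F) had an unadjusted p under 0.05. At 24 h edgeR called 0 of them and DESeq2 1, where edgeR called 19.4% of all genes, and 2 (APOBEC3B and APOBEC3F) had an unadjusted p under 0.05. The background was 95 genes at 12 h and 3554 at 24 h, against 772 and 5502 without untreated OE-BRCA1 replicate 1 and 49 to 174 and 2062 to 3469 without any other library. For APOBEC3B the difference of OE-BRCA1 minus EV response at 24 h was -0.38 (SE 0.14, adjusted p = 0.0623), and the DESeq2 call had an adjusted p of 0.0318. APOBEC3B was also called without untreated OE-BRCA1 replicate 1 (0.0454). For APOBEC3F it was 1.11 (SE 0.52, adjusted p = 0.139), on 16 to 18 EV reads per group, and it passed without untreated EV replicate 2 (0.0372) or EV replicate 1 at 24 h (0.0293). APOBEC3H had 2, 5 and 6 reads in the EV groups at 0 h, 12 h and 24 h. Its difference of response was -0.79 (SE 1.10) at 12 h and -0.275 (SE 0.83) at 24 h, so its missing call does not show an equal response.

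Over the 9 OE-BRCA1 libraries, log2 CPM of APOBEC3C and APOBEC3F had a Pearson r of 0.986, APOBEC3C and APOBEC3G of 0.948, and APOBEC3F and APOBEC3G of 0.937. APOBEC3H had an r of 0.771 with APOBEC3C and 0.753 with APOBEC3F. APOBEC3B had an r of 0.01 with APOBEC3C, 0.05 with APOBEC3F and -0.43 with APOBEC3H. These are descriptions over libraries that fall into 3 time groups and share their depth.

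The genes with the most similar profiles also differed by member. After subtracting each line's mean, over 18 libraries and 14073 genes, the closest genes to APOBEC3F were MX1 (r = 0.878), an antiviral GTPase, the noncoding RNA BISPR (0.871) and the nuclear body protein gene SP110 (0.822). Those closest to APOBEC3C were SEPTIN6 (0.904), a cytoskeletal septin, and the interferon-induced IFIT3 (0.893) and IFIT2 (0.892). Those closest to APOBEC3B were C15orf48 (0.888), TMEM41A (0.862) and MARCKSL1 (0.846). MARCKSL1 went from 256 CPM in untreated OE-BRCA1 libraries to 384 and 221, and MX1 from 675 to 1360 and 1140. In EV libraries APOBEC3F was near 0, as were MX1 (group means 0.371, 0.151 and 0.257 CPM) and C15orf48 (0, 0.0226 and 0.079 CPM). The EV part of those correlations therefore lies near the floor. Over the 9 OE-BRCA1 libraries, in 3 time groups, r was 0.944 for APOBEC3F with MX1 and 0.951 for APOBEC3B with C15orf48. The 4 scarcest members had means under 1 CPM and were not compared in this way.

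The transcription factors that relay interferon signals rose in the OE-BRCA1 libraries in 3 of 5 cases. At 12 h 3 were called higher and at 24 h again 3, with 0 lower and median log2 fold changes of 0.60 and 0.71. The shares of all tested genes called higher were 1.7% and 4.71%. STAT2, a subunit of the interferon-activated ISGF3 complex, went from 66.7 CPM to 168 and 162 (log2 fold change 1.33, SE 0.08, adjusted p = 2.75e-09 at 12 h). IRF1, which acts in the same pathway, went from 42.2 to 66.4 and 77.1 CPM (0.65, SE 0.10, adjusted p = 0.000367). IRF3, which acts upstream of interferon production, was 162, 154 and 131 CPM and was not called. In EV libraries 1 of the 5, IRF3, was called higher at 24 h (0.50, SE 0.17, adjusted p = 0.0488), and at 12 h edgeR and DESeq2 each called 0, with 1 at an unadjusted p under 0.05. There, 13.7% of all tested genes were called in either direction at 24 h. Between the lines, all 5 were called higher in OE-BRCA1 than in EV libraries at 0 h and at 12 h, where 39.4% and 38.8% of all tested genes were. The scarcest of the 5 had 14, 14 and 10 reads in the EV groups at 0 h, 12 h and 24 h. It passed the filter on low counts only through the OE-BRCA1 libraries, so its line calls were favoured in part by the filter. At 24 h 4 of the 5 were, where 39.9% of all genes were, and IRF3 was not (0.29, SE 0.16, adjusted p = 0.114).

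Other restriction factors rose in part. In OE-BRCA1 libraries 3 of 10 tested were called higher at 12 h and 4 higher and 1 lower at 24 h. Beside these and the deaminases below, 1.7% of all tested genes were called higher at 12 h. At 24 h 4.71% were called higher and 3.55% lower. SAMHD1, a dNTP-degrading enzyme that blocks reverse transcription, went from 191 to 358 and 358 CPM (log2 fold change 0.90, SE 0.09, adjusted p = 3.21e-06 at 12 h), and MOV10, an RNA helicase found with APOBEC3G in RNA granules, from 213 to 307 and 280 CPM (0.53, SE 0.08, adjusted p = 0.000341). BST2, which tethers budding virions, was 658, 698 and 665 CPM and was not called there, but rose in EV libraries at 24 h (0.52, SE 0.13, adjusted p = 0.015). Among 8 other tested deaminases 2 were called higher at each time, both of them adenosine deaminases of double-stranded RNA. ADAR went from 794 to 1120 and 1120 CPM (0.50, SE 0.09, adjusted p = 0.00282 at 12 h) and ADARB1 from 33.8 to 52.2 and 43.6 CPM (0.62, SE 0.09, adjusted p = 0.000177). DCTD, which makes dUMP from dCMP, was called lower at 24 h (-0.31, SE 0.08, adjusted p = 0.0276).

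Of 14 genes that repair the uracil left by APOBEC3 enzymes, 0 were called in OE-BRCA1 libraries at 12 h by edgeR and 0 by DESeq2. At that time 1 had an unadjusted p under 0.05. At 24 h 2 of the 14 were called higher in OE-BRCA1 libraries, where 4.71% of all tested genes were. In EV libraries 2 of the 14 were called higher at 24 h, where 13.7% of all tested genes were called in either direction. HMCES, which shields abasic sites in single-stranded DNA, was 161, 155 and 134 CPM in OE-BRCA1 libraries without a call. It was called higher in EV libraries at 24 h (0.46, SE 0.12, adjusted p = 0.0147). Of 8 cofactors and parts of the ubiquitin ligase through which Vif removes APOBEC3 proteins, edgeR called 0 in OE-BRCA1 libraries at 12 h and 0 at 24 h, with 0 and 3 at an unadjusted p under 0.05 and 0 and 1 called by DESeq2, and in EV libraries at 24 h 2 were called higher and 1 lower. Of 8 genes of single-stranded DNA and replication stress, 2 were called higher in OE-BRCA1 libraries at 24 h, CLSPN (0.63, SE 0.13, adjusted p = 0.00371) and TIMELESS (0.29, SE 0.08, adjusted p = 0.0251), both parts of the fork protection machinery.

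Most of the listed genes of mitosis fell in OE-BRCA1 libraries. Of 10 G2/M genes that the DREAM repressor complex silences, 7 were called lower in OE-BRCA1 libraries at 12 h and 7 at 24 h, with median log2 fold changes of -0.58 and -0.55. Among all tested genes 0.605% and 3.55% were called lower at these times, and 4.71% higher at 24 h. CCNB1, a mitotic cyclin, went from 122 CPM to 74.4 and 74.6 (-0.72, SE 0.10, adjusted p = 0.000115 at 12 h), and CDC20, an activator of the anaphase-promoting complex, from 434 to 280 and 209 CPM (-0.63, SE 0.12, adjusted p = 0.0025). Of 13 DREAM, RB and E2F genes 0 were called at 12 h by edgeR, 0 by DESeq2 and 0 had an unadjusted p under 0.05, and 2 were higher and 1 lower at 24 h. Of 5 NF-kB subunits 0 were called at 12 h by edgeR or DESeq2, with 2 at an unadjusted p under 0.05, and 1 was lower at 24 h, NFKB2, the precursor of the noncanonical subunit, from 53.3 to 29.3 CPM (-0.87, SE 0.13, adjusted p = 0.000147). In EV libraries 1 of the 10 G2/M genes was called lower at 12 h, and 2 lower and 1 higher at 24 h. Of all tested genes 0.0436% and 13.7% were called there in either direction.

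**Figure D4:**
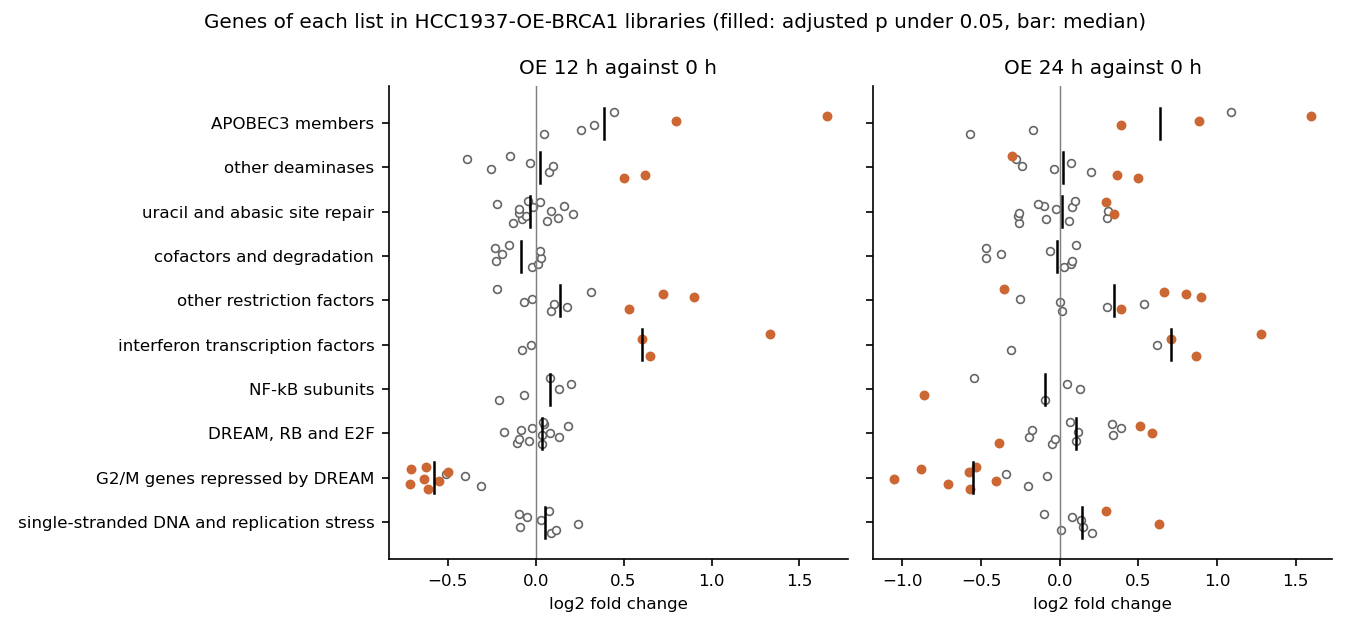
Log2 fold change (horizontal axis) of each tested gene of 10 lists in OE-BRCA1 libraries at 12 h and 24 h against 0 h, filled at an adjusted p under 0.05, with the list median as a bar. The G2/M genes lie left of 0 with medians of -0.58 and -0.55, and the interferon transcription factors lie mostly to the right with medians of 0.60 and 0.71.

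Markers of other cells moved with the line, and in part with treatment. Of 12 leukocyte markers 8 were in the table, and their summed level was 1.41 to 2.89 CPM in EV libraries, 38.9 to 55.1 CPM in untreated OE-BRCA1 libraries, and 82.4 to 90.6 and 75.9 to 92.8 CPM at 12 h and 24 h. CD14, a monocyte receptor also made by other cells, gave most of it with 40.6, 77.7 and 77.9 CPM. PTPRC, the pan-leukocyte phosphatase, was 1.09, 0.931 and 1.23 CPM in OE-BRCA1 libraries and had no count in EV libraries. ITGAM, an integrin of myeloid cells, was 5.69, 6.03 and 4.07 CPM in OE-BRCA1 libraries against 0.226, 0.044 and 0.0197 CPM in EV libraries, and CD8A, a T cell co-receptor, 0.249, 0.437 and 0.798 against 0.0828, 0.0208 and 0 CPM, while SPI1, CD79A and LYZ were all under 0.2 CPM in OE-BRCA1 libraries. Of 4 endothelial markers 3 were in the table and summed to 1.11 to 2.89 CPM in EV and 17.2 to 27.0 CPM in OE-BRCA1 libraries, and the 5 fibroblast markers to 97.1 to 153 and 6.28 to 11.9 CPM. The part of such cells in the APOBEC3 differences was not tested.

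Protein-coding genes around the cluster differed between the lines as well. Within 300 kb on either side 13 were tested, of which 7 were called higher and 2 lower in OE-BRCA1 than in EV libraries at 0 h, where 39.4% and 33.3% of all genes were. SUN2, a nuclear envelope protein, was at 220 against 60.4 CPM, and NPTXR at 78.9 against 19.1 CPM. SYNGR1, on the far side, had 1949 reads against 1, a ratio of 1950 with a counting interval of 350 to 77200. With olaparib 0 of the 13 were called in OE-BRCA1 libraries at 12 h by edgeR and 1 by DESeq2, with 2 at an unadjusted p under 0.05, and at 24 h 0 were called higher and 3 lower, namely TOMM22 (-0.39, SE 0.10), SUN2 (-0.55, SE 0.13) and RPL3 (-0.53, SE 0.12). The shares of all tested genes at 24 h were 4.71% higher and 3.55% lower.

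**Figure D5:**
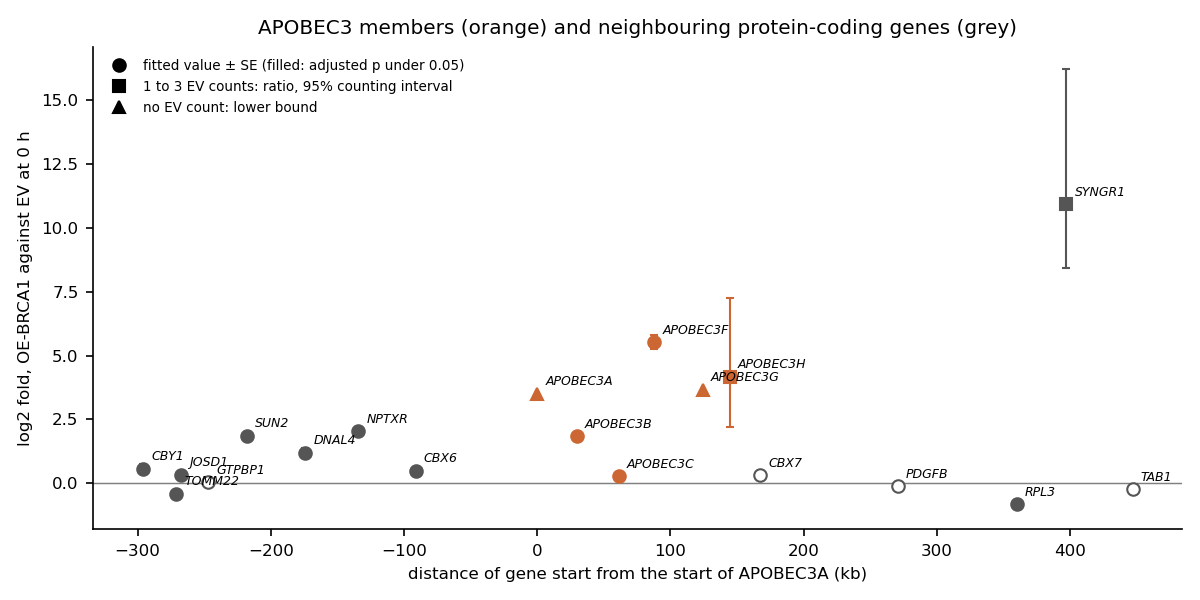
Log2 fold of untreated OE-BRCA1 against EV libraries (vertical axis) by distance of the gene start from that of APOBEC3A in kb (horizontal axis), for members (orange) and the other tested protein-coding genes (grey). Circles are fitted values with SE, squares are ratios with counting intervals where EV had 1 to 3 reads, and triangles are lower bounds. APOBEC3C lies near 0.28 and APOBEC3B near 1.83, between neighbours called in either direction.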

How the data were processed

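RNA of 18 libraries, labelled as HCC1937-EV or HCC1937-OE-BRCA1, was sequenced after TRIzol extraction and NEBNext Ultra II preparation. The authors deposited one table of unnormalized whole-number read counts, and the submitters' processing notes name HISAT2, featureCounts, DESeq2 and GRCh38 without versions, while read length, annotation release and strand setting are not given in the sources used here. Each of 18 single-library tables was checked to equal its column of the joint table. Symbols matched 99.78% of identifiers without their version, and exons, lengths and positions came from GENCODE 29 (96.7% of identifiers). The members and gene lists were chosen with earlier results of these data known, and are therefore no independent evidence.

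In edgeR 4.0.16 (R 4.3.3) counts were filtered with filterByExpr, scaled by TMM and fitted with 1 mean per group over 18 libraries. The quasi-likelihood test was adjusted by Benjamini-Hochberg over 18335 genes, and genes were called at an adjusted p under 0.05. The script was tested on simulated counts. CPM use TMM library sizes, and CPM per kb divides them by annotated exon length. Bounds use 3 counts over an EV group and take the OE-BRCA1 count as observed, without its counting error, and intervals are exact at 95%. The biological coefficient of variation was 12.9%. No pair of replicates agreed within sampling noise. The text names all members, up to 4 genes per list (smallest p over treatment and line comparisons) and the 3 most similar genes per member of at least 1 CPM. PTPRC, SPI1, CD79A and LYZ were added as defining markers after their values were seen, and BRCA1 was a check of the lines. A few genes that the rule names are not reported here. DESeq2 1.42.0, other scalings and filters, an offset for GC content and length, a replicate block and leaving out libraries were alternatives.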

Additional observations from a re-analysis of the deposited data

How the results depend on the processing

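No log2 fold change of a member changed sign among those that were called. Over the settings other than leaving out a library, 393 fold changes of single members kept their side of the threshold, 6 newly passed and 3 no longer did, and over the fits without 1 library the counts were 366, 3 and 15. When at least 10 counts in every library were required, only APOBEC3B and APOBEC3C could be tested, and the members called in OE-BRCA1 libraries came to 0 at 12 h and 1 at 24 h, those called between the lines to 2 at 0 h, 2 at 12 h and 2 at 24 h, and those with a different response at 24 h to 1. DESeq2 also called 1 member for that difference, and in EV libraries at 24 h a fit on the compared groups alone called 1. Leaving out 1 library gave 1 to 2 members called in OE-BRCA1 libraries at 12 h, 1 to 3 at 24 h, 0 to 0 between 12 h and 24 h and 0 to 1 for the difference of response at 24 h, and moved no other count. Equal replicate numbers did not pair libraries: over 45 pairs with the same number the correlation of deviations ran from -0.42 to 0.53, only 14 were over 0.1, and 7 of 18 libraries correlated best with their own number. With the replicate number as a block, 0 members were called at 12 h and at 24 h in EV libraries. In OE-BRCA1 libraries 2 were called at 12 h and 3 at 24 h, and between the lines 6 at each time. The block thus changed no count of members. Of those 6, APOBEC3A, APOBEC3F, APOBEC3G and APOBEC3H passed the filter only through OE-BRCA1 libraries, so their line calls are no support. With the block, 13334, 13344 and 13543 of 18335 genes were called between the lines in either direction at 0 h, 12 h and 24 h. A smooth trend on GC content and length accounted for 2.22% to 42.08% of the deviation of single libraries. Depth limits APOBEC3A, APOBEC3D, APOBEC3G and APOBEC3H, whose groups held at most 120 reads.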
